A study of Mus musculus with 6 samples.

Results

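The transcriptomes of committed oligodendrocyte precursors (COP) and oligodendrocyte precursor cells (OPC) were compared within the same mice. Members were the cells that the authors labelled OPC or COP, 1942 of the 20151 cells of these mice, of which 1261 were OPC and 681 were COP. Counts of UMIs (the molecular barcodes by which each transcript is counted once) were summed per mouse and label, which gave 4 OPC sums and 4 COP sums paired by mouse. The tissue was the hypothalamus of 11-week-old ob/ob males, which lack functional leptin and are obese, and the animals were housed singly. All of them had been injected 5 days earlier, in a brain ventricle, with 3 µg of FGF1 R50E, an FGF1 variant that binds integrin poorly. The labels name 6 such mice, and cells of mice 3, 4, 30 and 34 were analysed here. With 1 treatment group, no effect of the treatment was estimated, and what OPC and COP share from the treatment or the strain cannot be read from their difference.

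OPC are the dividing glial progenitors of the adult brain. They depend on platelet-derived growth factor, carry chondroitin sulphate proteoglycans and receive synaptic input from neurons. COP are the short-lived stage in which such a cell has left the cell cycle and started to differentiate but has not yet made myelin, and it is followed by the myelin-forming oligodendrocyte.

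COP made up 35.0% of the OPC and COP cells of mouse 3, 44.7% of mouse 4, 37.6% of mouse 30 and 24.1% of mouse 34. The mean was 35.4% ± 8.58 (SD, n = 4), and the exact binomial 95% intervals of mouse 34 (20.3% to 28.1%) and of mouse 4 (40.0% to 49.5%) did not overlap. Sums held 235526 to 456745 UMIs for OPC and 208955 to 498365 UMIs for COP. COP cells held more UMIs per cell in 4 of 4 mice, with medians of 1081 to 2402.5 against 765 to 1154 in OPC and ratios of 1.41 to 2.08 within a mouse. The median mitochondrial share was lower in COP in 4 of 4 mice (8.35% ± 1.02 against 12.5% ± 1.32, SD, n = 4), and the median doublet score was higher in 4 of 4 (0.0477 ± 0.0129 against 0.0267 ± 0.00679). Each of these 3 differences had a two-sided exact paired permutation p of 0.13, the smallest that 4 pairs allow. Pairs of libraries shared 18 to 66 cell barcodes.

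Of 14330 genes with a UMI in either type, 4879 passed the filter on low counts and were tested. A gene was called where its adjusted p was under 0.05 and its log2 fold change exceeded 1 in size, by edgeR's quasi-likelihood test with mouse as a block. By this rule 24.0% of the tested genes were called, 528 (10.8%) higher and 644 (13.2%) lower in COP. These shares are the reference for each count of called list members below. Of the 1172 called genes, 1159 moved in the same direction in 4 of 4 mice, and the median log2 fold change over all tested genes was -0.0061. Beyond a log2 fold change of 2 in size there were 219 higher and 270 lower genes, and beyond 3 there were 84 and 113. In 1124 of the called genes the 4 OPC values and the 4 COP values did not overlap, as in 37.7% of all tested genes. Because labels of this kind rest on expression, the calls and p-values describe how stable the difference was over mice, and they do not test whether the types differ. Levels are given as CPM, counts scaled to 1000000 UMIs of the sum, so they are shares of a type's transcripts and not molecules per cell.

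**Figure D1:**
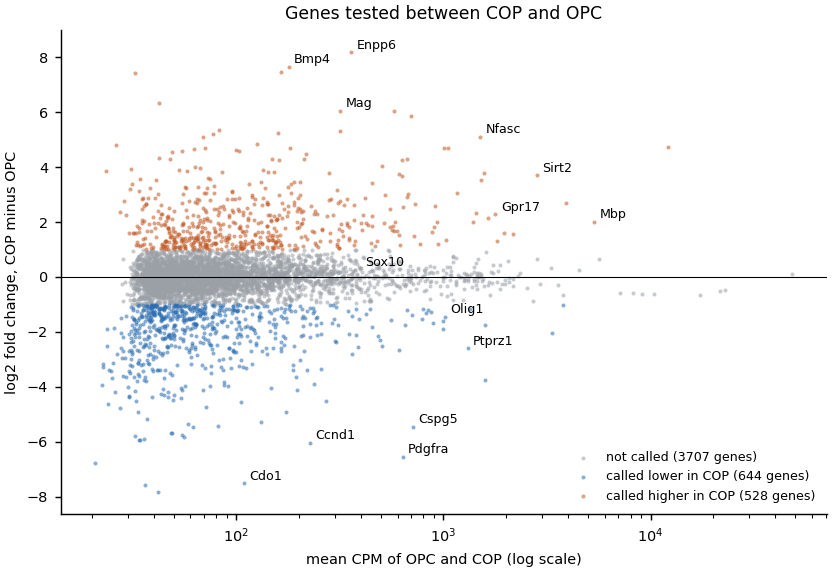
Log2 fold change of COP minus OPC against the mean CPM of both types (log scale), with 1 point per tested gene. The 528 genes called higher and the 644 called lower in COP lie on both sides of the 3707 genes that were not called, and the named genes reach from Cdo1 at -7.51 to Enpp6 at 8.18.

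The largest increases were in genes almost without UMIs in OPC. Enpp6, a choline phosphodiesterase that marks newly forming oligodendrocytes, stood at 4.38, 0, 0 and 2.29 CPM in the OPC of mice 3, 4, 30 and 34 and at 825, 682, 684 and 674 CPM in their COP. Bmp4, a bone morphogenetic protein ligand, was at 0, 0, 8.49 and 0 CPM in OPC and at 291, 394, 282 and 456 CPM in COP. For both genes every COP value exceeded every OPC value by far. Their log2 fold changes were 8.18 ± 0.25 (SE, adjusted p = 2.84e-49, edgeR) and 7.64 ± 0.33 (adjusted p = 8.54e-38). These fits rest on 3 and 2 UMIs in OPC, and the ratio of the pooled levels was 337 for Enpp6 (95% counting interval 115 to 1636) and 239 for Bmp4 (65.9 to 1983). Leaving out 1 mouse moved the log2 fold change of Enpp6 to 8.81 (without mouse 3) and that of Bmp4 to 10.14 (without mouse 30) or 6.995 (without mouse 34).

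Other large increases were in genes of varied function. Nfasc, which encodes the adhesion protein neurofascin of glial and axonal contacts, was at 98.5, 57.4, 89.2 and 89.5 CPM in the OPC of mice 3, 4, 30 and 34. In their COP it was at 3086, 3127, 2895 and 2576 CPM, a log2 fold change of 5.10 ± 0.10 (SE). Chn2, a GTPase-activating protein for Rac, went from 15.8 ± 6.85 to 1134 ± 83.2 CPM (SD, n = 4), and Frmd4a, a scaffold protein of cell polarity, from 74.0 ± 32.0 to 2020 ± 142 CPM. Pik3r3, a regulatory subunit of phosphoinositide 3-kinase, rose by 5.30 ± 0.19 and Brca1, a DNA repair gene, by 4.86 ± 0.26 on the log2 scale (SE). Lgi3, a secreted leucine-rich repeat protein, rose by 5.26, the kinesin gene Kif19a by 5.21 and Matn1, a matrilin of the extracellular matrix, by 5.09 (5.77 without mouse 3, 4.51 without mouse 34). The long noncoding RNA 9530059O14Rik rose by 7.47 from 2 UMIs in OPC, a ratio of 221 (counting interval 60.7 to 1828). Each gene named here was higher in COP in 4 of 4 mice.

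The largest decreases included the receptor that defines OPC. Pdgfra, the receptor for platelet-derived growth factor, was at 1167, 1267, 1401 and 1202 CPM in the OPC of mice 3, 4, 30 and 34 and at 14.05, 10.2, 23.9 and 3.62 CPM in their COP. The log2 fold change was -6.55 ± 0.17 (SE, adjusted p = 1.83e-55, edgeR), from 1696 UMIs in OPC and 16 in COP. Cdo1, the cysteine dioxygenase, had 292 UMIs in OPC and 1 in COP, with 186 to 251 CPM in every OPC sum and 0 CPM in the COP of 3 of the 4 mice. Its ratio of pooled levels was 272 with a counting interval of 48.4 to 10778, so its size is poorly fixed although the groups did not overlap. Its log2 fold change was -6.92 without mouse 3 and -9.24 without mouse 4.

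Cspg5, the proteoglycan neuroglycan C, was at 1387 ± 77.1 CPM in OPC and 30.7 ± 11.3 CPM in COP (SD, n = 4), a log2 fold change of -5.44 ± 0.14. Rlbp1, a retinaldehyde-binding protein, also had a log2 fold change of -5.44, on 4 UMIs in COP. Ccnd1, which encodes the G1 cyclin D1, was at 440, 484, 395 and 459 CPM in the OPC of mice 3, 4, 30 and 34 and at 4.01, 6.79, 19.1 and 0 CPM in their COP. The transcription factor gene Ebf1 (-5.84), the ceruloplasmin gene Cp (-5.74), Emid1 (-5.45) and the ERK feedback inhibitor gene Spry1 (-5.37) had 2 or 3 UMIs in COP. Their pooled ratios were 71.3 (counting interval 19.4 to 594), 68.9 (18.7 to 574), 50.6 (17.0 to 248) and 49.1 (16.5 to 240). Etv5 (-5.28), Kcnip3 (-4.90), Tmem255a (-4.75), Mmp16 (-4.57), Pcdh15 (-4.50) and Epha5 (-4.40) were the other large decreases, each lower in COP in 4 of 4 mice. They encode an ETS transcription factor, a potassium channel interacting protein, a transmembrane protein, a membrane-bound metalloproteinase, a protocadherin and an ephrin receptor. Leaving out 1 mouse changed the fold, on the linear scale, by more than 1.5 times in some of these genes. Without mouse 3, the log2 fold changes were -5.11 for Ebf1, -6.15 for Emid1, -4.79 for Rlbp1, -4.76 for Spry1, -5.43 for Tmem255a and -3.98 for Mmp16. Without mouse 30, Ccnd1 was at -6.75 and Ebf1 at -6.47, and without mouse 34, Rlbp1 was at -6.71 and Spry1 at -6.30.

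**Figure D2:**
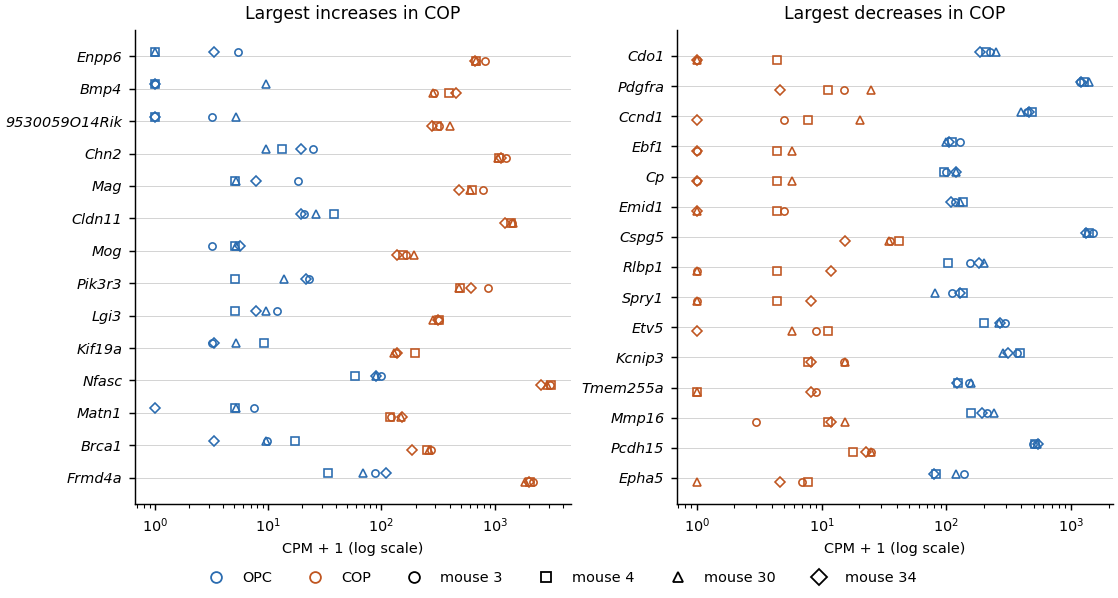
CPM + 1 (log scale) of the genes with the largest increases and the largest decreases in COP, with 1 symbol per mouse, OPC in blue and COP in orange. In each gene shown the 4 OPC values and the 4 COP values are separate, and values at the left edge of a panel are sums with 0 UMIs.

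The 250 bases before the annotated start of Enpp6, Bmp4 and Pdgfra are shown as the regulatory sequence next to the 2 largest gains and the lost defining receptor. They were taken from RefSeq promoter windows of GRCm38.p6, each gene having 1 window there, and are written 5′ to 3′ on the gene's strand. They lie at chr8:46986637-46986886 (plus strand), chr14:46390670-46390919 (minus strand) and chr5:75152001-75152250 (plus strand).
Enpp6: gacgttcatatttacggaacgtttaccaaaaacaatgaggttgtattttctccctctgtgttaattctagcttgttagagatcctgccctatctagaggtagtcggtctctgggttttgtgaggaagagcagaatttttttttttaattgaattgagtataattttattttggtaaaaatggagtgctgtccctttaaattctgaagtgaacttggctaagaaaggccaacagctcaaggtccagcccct
Bmp4: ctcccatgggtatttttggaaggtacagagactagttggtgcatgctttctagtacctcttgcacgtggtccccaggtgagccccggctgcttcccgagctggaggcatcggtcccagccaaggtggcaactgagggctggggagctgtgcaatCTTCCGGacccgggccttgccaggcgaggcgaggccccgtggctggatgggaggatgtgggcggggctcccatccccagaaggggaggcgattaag
Pdgfra: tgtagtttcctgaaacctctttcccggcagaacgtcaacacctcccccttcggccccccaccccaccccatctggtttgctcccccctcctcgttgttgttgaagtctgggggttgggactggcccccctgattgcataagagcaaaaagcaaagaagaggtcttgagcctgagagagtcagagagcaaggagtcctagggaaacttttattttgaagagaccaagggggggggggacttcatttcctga
Capitals mark the only match, on either strand, to 4 motifs that were searched, the SOX core ACAAAG, the E-box CAGCTG, the MYRF core CTGGCAC and the ETS core CCGGAAG. Among all 32851 windows of the same length, these letters occur in 16.5%, 13.0%, 4.19% and 6.91%. Absence of the letters from a window says nothing about the factors.

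Genes that identify OPC fell as a group, but not all of them. Of 16 such genes, all tested, 11 were lower and 1 higher in COP, with a median log2 fold change of -2.58 against -0.0061 over all tested genes. Cspg4, the NG2 proteoglycan, fell from 371 ± 39.2 to 20.4 ± 5.49 CPM (SD, n = 4). Ptprz1, a receptor phosphatase that binds pleiotrophin, was at 2284, 2349, 2288 and 2095 CPM in the OPC of mice 3, 4, 30 and 34 and at 365, 333, 397 and 362 CPM in their COP. Its log2 fold change of -2.60 ± 0.08 (SE) was thus smaller than that of Cspg4, -4.12 ± 0.20, and both had groups that did not overlap. The AMPA receptor auxiliary subunit gene Cacng4 (-2.56), C1ql1 (-2.68), Lhfpl3 (-2.09) and Matn4 (-2.19) changed by similar amounts. Tnr, which encodes tenascin-R of the extracellular matrix, was the exception. It was at 585, 525, 556 and 544 CPM in OPC and at 2127, 2353, 2407 and 1949 CPM in COP, a log2 fold change of 2.01 ± 0.07 (adjusted p = 2.94e-43, edgeR).

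Some precursor genes stood within the limit of the call. Vcan, the proteoglycan versican, was at 504 ± 111 CPM in OPC and 348 ± 15.1 CPM in COP (log2 fold change -0.47 ± 0.11). Gpr37l1, an orphan receptor, was at 591 ± 122 and 534 ± 61.2 CPM (-0.11 ± 0.10), and its groups overlapped. Sox6, a transcription factor that restrains differentiation, was at 256 ± 24.1 CPM in OPC and 500 ± 97.0 CPM in COP, a log2 fold change of 1.00 ± 0.12 just below the limit and past it without mouse 4 (1.18). In oligodendrocytes of the same mice the means were 8.10 CPM for Vcan, 103 CPM for Gpr37l1, 10.9 CPM for Sox6 and 15.6 CPM for Tnr.

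Of 20 commitment stage genes, 18 were tested, and 17 were higher and 0 lower in COP, with a median log2 fold change of 2.97. The genes of this list were partly chosen because they mark COP. Gpr17, an orphan receptor that times differentiation, was at 817, 492, 463 and 686 CPM in the OPC of mice 3, 4, 30 and 34 and at 3289, 2536, 2742 and 3238 CPM in their COP. It was thus present in OPC in every mouse and rose by 2.28 ± 0.07 on the log2 scale. Sirt2, a tubulin deacetylase, went from 410 ± 52.5 to 5222 ± 602 CPM (3.70 ± 0.07), Fyn, a kinase downstream of axonal contact, from 243 ± 33.4 to 2784 ± 271 CPM (3.53 ± 0.08) and Bcas1 from 250 ± 31.2 to 2080 ± 108 CPM (3.07 ± 0.09). Epb41l2, a membrane skeleton protein, rose by 4.30 and Tmem108 by 4.03. Neu4, a sialidase, was at 370 ± 68.9 CPM in OPC and 711 ± 36.3 CPM in COP, a log2 fold change of 0.98 ± 0.10 that was below the limit and past it without mouse 30 (1.07) or mouse 34 (1.02).

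Myelin genes were mostly higher in COP, with exceptions. Of 18 genes, 12 were tested, and 9 were higher and 0 lower in COP, with a median log2 fold change of 2.20. Mag, the myelin-associated glycoprotein, was at 17.5, 4.10, 4.25 and 6.88 CPM in the OPC of mice 3, 4, 30 and 34 and at 787, 625, 603 and 485 CPM in their COP, a log2 fold change of 6.04 ± 0.21. Every COP value lay above every OPC value. Cldn11, the tight junction protein of the sheath, went from 25.1 ± 8.44 to 1373 ± 96.7 CPM (5.87 ± 0.15) and Cnp from 218 ± 32.5 to 2928 ± 118 CPM (3.79 ± 0.08). Mog, on the outer face of myelin, rose by 5.34 ± 0.33 to 162 ± 22.7 CPM, beside 1015 CPM in oligodendrocytes. In contrast, Mobp was at 432 ± 96.0 CPM in OPC and 288 ± 51.3 CPM in COP (-0.59 ± 0.11), beside 3286 CPM in oligodendrocytes. Car2, a carbonic anhydrase, was at 40.4 and 41.7 CPM, beside 1961 CPM in oligodendrocytes. Mal (17.3 and 46.8 CPM), Ermn (12.7 and 13.5 CPM) and Opalin (3.18 and 34.4 CPM) had too few UMIs in both types to be tested.

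Myelin transcripts were also counted in cells outside the lineage. In endothelial cells of the same mice, Mbp was at 1733 ± 699 CPM and Mobp at 346 ± 121 CPM, close to their OPC levels of 2203 ± 794 and 432 ± 96.0 CPM (SD, n = 4). The myelin list summed to 2610 to 4715 CPM in endothelial cells, 3788 to 5890 CPM in OPC and 35478 to 41985 CPM in COP. Mal, a member of the list, was at 287 ± 90.9 CPM in endothelial cells and 23.2 ± 9.41 CPM in astrocytes (SD, n = 4). The endothelial sum therefore cannot be read as background alone. The part of free RNA in the OPC levels was not tested. For Mag, 2.50% of endothelial cells and 0.920% of OPC cells held a UMI.

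Shares of cells were compared at equal depth, with each cell thinned to 487 UMIs, the smallest total of any cell. Median depths before thinning were 1020 UMIs in OPC, 1771 in COP and 1064 in endothelial cells. Pdgfra was then seen in 46.7% ± 4.93 of OPC and 0.275% ± 0.323 of COP (SD, n = 4), beside 0.828% of endothelial cells. Before thinning its shares were 70.1% and 1.82%, beside 1.62% of endothelial cells, which had a lower median depth than COP. Whether the COP share is background was not tested. Gpr17 was seen in 24.6% ± 4.54 of OPC and 67.7% ± 4.69 of COP, beside 0.675% of endothelial cells (43.8%, 92.2% and 1.85% unthinned). Enpp6 was seen in 0.130% of OPC and 29.0% ± 4.31 of COP, and before thinning in 0.198% of OPC, 66.0% of COP and 0.115% of endothelial cells. Mobp shares, 19.5% in OPC and 12.6% in COP, were near the 16.8% of endothelial cells (35.5%, 36.4% and 32.1% unthinned).

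**Figure D3:**
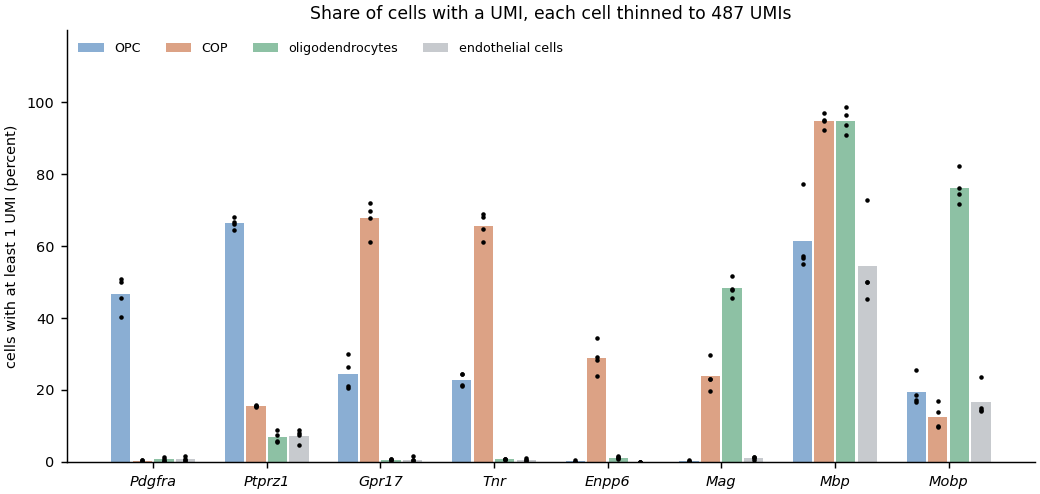
Percent of cells with at least 1 UMI of a gene after thinning each cell to 487 UMIs, as means of 4 mice (bars) with 1 point per mouse, in OPC, COP, oligodendrocytes and endothelial cells. Pdgfra is seen in OPC, Gpr17, Tnr and Enpp6 mostly in COP, while Mbp and Mobp are seen in OPC at shares near those of endothelial cells.

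UMIs of 8 markers each of OPC and COP were counted in single cells, as a description of the labelled cells, since the labels rest on expression. After thinning, the median OPC cell held 3 UMIs of OPC markers and 1 of COP markers, and the median COP cell 0 and 5. In OPC, 44.5% of cells held OPC markers only, 51.6% both and 2.06% COP markers only. In COP, 0.294% held OPC markers only, 29.1% both and 69.6% COP markers only. Of 1266 cells labelled endothelial and thinned alike, 12.1% held OPC markers only, 1.34% both and 11.8% COP markers only. Cspg4, one of the OPC markers, was at 80.9 ± 13.3 CPM in these cells and 4.41 ± 3.42 CPM in astrocytes (SD, n = 4), so the 12.1% cannot be read as background alone. The share of COP cells with both ranged from 28.1% to 31.0% over mice, and that of OPC cells from 43.0% to 56.0%. Several of these markers were found at lower levels in the other type in every mouse, as Gpr17 in OPC and Ptprz1 in COP, so a cell with both is not by itself a transition or a doublet.

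Transcription factors of the lineage changed in both directions. Of 12 genes that hold back differentiation, 9 were tested, and 6 were lower and 1 higher in COP, with a median log2 fold change of -2.06. Id2, an inhibitor of basic helix-loop-helix factors, fell from 336 ± 46.1 to 74.6 ± 19.8 CPM (-2.14 ± 0.16), Hes5, a Notch target, from 44.3 ± 3.05 to 4.25 ± 3.97 CPM (-3.38 ± 0.50) and Sox5 by 2.06 ± 0.23 on the log2 scale. Sox2, a progenitor factor, was the 1 called higher (1.11 ± 0.12), from 194 ± 13.3 to 415 ± 26.4 CPM, and Sox6 passed the adjusted p with a log2 fold change at the limit.

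Of 14 genes listed as promoting differentiation, 11 were tested, with 6 higher and 2 lower in COP and a median log2 fold change of 1.35. The list includes Sox4 and Sox11, whose direction of action in these cells was not tested. Myrf, the master regulator of myelin genes, was at 19.7, 16.4, 8.49 and 16.1 CPM in the OPC of mice 3, 4, 30 and 34 and at 343, 272, 325 and 279 CPM in their COP (4.26 ± 0.22). Tcf7l2, a Wnt effector of this stage, rose from 81.0 ± 16.2 to 825 ± 142 CPM (3.42 ± 0.13) and Sox4 from 173 ± 44.7 to 931 ± 189 CPM (2.46 ± 0.11). Zeb2 rose by 1.85 ± 0.11, Zfp488 by 1.56 ± 0.21 and Nkx2-2 by 1.35 ± 0.17. Olig1 fell, from 1485 ± 109 to 540 ± 68.3 CPM (-1.45 ± 0.08), as did Sox11 (-2.09 ± 0.20). The lineage factors Olig2 (-0.49 ± 0.11) and Sox10 (0.28 ± 0.11) were within the limit, with Sox10 at 359 ± 54.0 CPM in OPC and 428 ± 16.3 CPM in COP.

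**Figure D4:**
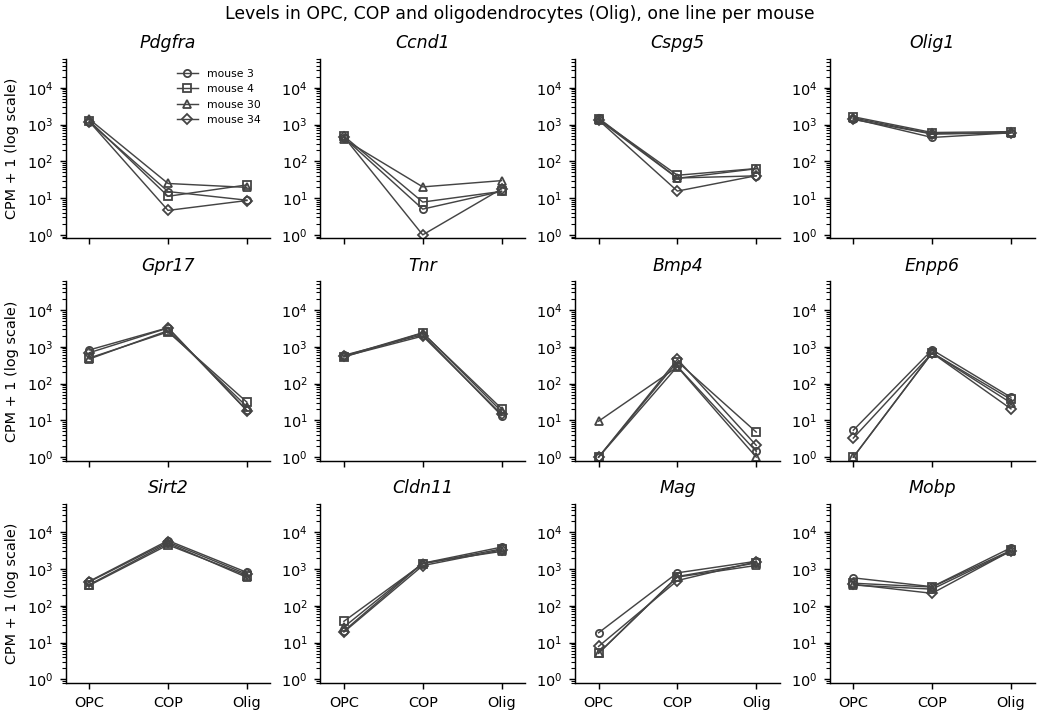
CPM + 1 (log scale) of 12 genes in OPC, COP and oligodendrocytes (Olig), with 1 line per mouse. Pdgfra, Ccnd1 and Cspg5 are high in OPC alone, Gpr17, Tnr, Bmp4, Enpp6 and Sirt2 peak in COP in each of the 4 mice, and Cldn11 and Mag are higher in COP than in OPC and higher again in oligodendrocytes.

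Growth factor receptor genes were mostly lower in COP. Of 10 growth factor receptors, 8 were tested, and 6 were lower and 0 higher, with a median log2 fold change of -1.74. Besides Pdgfra these were Fgfr1 (-2.83 ± 0.35), a receptor of fibroblast growth factors, Lifr (-2.34 ± 0.28), Erbb3 (-1.92 ± 0.31), Ntrk2 (-1.57 ± 0.11) and Fgfr3 (-1.47 ± 0.22). Fgfr1 was at 77.1 ± 10.6 CPM in OPC and 10.3 ± 6.04 CPM in COP. Fgfr2, another receptor of the family, had 9 UMIs in OPC and 17 in COP and was not tested. Igf1r (-0.31 ± 0.19) and Erbb4 (-0.07 ± 0.25) had groups that overlapped.

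Genes that respond to the ERK kinase cascade were mostly lower too. Of 10 genes, 8 were tested, and 7 were lower and 1 higher in COP, with a median log2 fold change of -4.55. Etv5, an ETS factor induced by ERK, was at 293, 201, 263 and 268 CPM in the OPC of mice 3, 4, 30 and 34 and at 8.03, 10.2, 4.79 and 0 CPM in their COP. Spry4, a feedback inhibitor, had 96 UMIs in OPC and 1 in COP (ratio 89.4, counting interval 15.7 to 3568), and Etv4 had 134 and 2 (62.4, 16.9 to 521). Spry2 (-3.83 ± 0.26), the phosphatase gene Dusp6 (-3.64 ± 0.48) and Phlda1 (-2.74 ± 0.23) were lower as well. Without mouse 4 Dusp6 was at -5.19, without mouse 3 Spry4 was at -7.14, and without mouse 30 Etv4 was at -6.36. Epha4, an ephrin receptor, went the other way, from 15.7 ± 2.61 to 124 ± 32.9 CPM (3.06 ± 0.26).

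Of the 18 genes of the division phases only Pcna and Hmgb2 had enough UMIs to be tested, and neither was called. Hmgb2 was called lower without mouse 34 (-1.07), with equal numbers of cells (-1.11) and with scaling by total UMIs (-1.02) or by upper quartile (-1.03). Summed, the 18 genes were at 493, 504, 607 and 273 CPM in the OPC of mice 3, 4, 30 and 34 and at 128, 129, 201 and 127 CPM in their COP, so the groups did not overlap. Top2a and Rrm2 had 36 and 27 UMIs in OPC and 0 in COP, at least 11.2-fold and 8.38-fold lower in COP against a floor of 3 UMIs over the COP sums. Mki67, a marker of dividing cells, had 32 UMIs in OPC and 3 in COP (ratio 9.93, counting interval 3.11 to 50.7). Of 9 cyclins, cyclin-dependent kinases and inhibitors, 4 were tested, with 2 lower and 1 higher (median -1.27). Ccnd2 fell with Ccnd1 (-2.41 ± 0.25), while Cdk4, the kinase partner of D cyclins, rose from 122 ± 26.0 to 315 ± 61.2 CPM (1.40 ± 0.14). Cdkn1b, a cell cycle inhibitor, was at 36.3 ± 7.54 and 35.5 ± 14.1 CPM, and its groups overlapped.

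In the Notch pathway, 6 of 14 genes were tested, and 4 were lower and 0 higher in COP (median -2.35). These were the receptor gene Notch1 (-2.08 ± 0.24), the ligand gene Dner (-3.16 ± 0.22) and the targets Hes1 (-2.61 ± 0.27) and Hes5. Hes1 stood at 54.3 CPM in the COP of mouse 4, against 7.24 to 10.0 CPM in the COP of the others, and its log2 fold change was -3.34 without that mouse. The ligand gene Dll1 had 66 UMIs in OPC and 2 in COP and was not tested. In the BMP and Wnt list, 5 of 16 genes were tested, with 2 higher (Bmp4 and Tcf7l2) and 2 lower (Id3 and Bmpr1a) and a median of -0.21. The receptor gene Bmpr1a (-1.18 ± 0.28, adjusted p = 0.00027, edgeR) had an adjusted p of 0.0548 with DESeq2.

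Receptors for transmitters were mostly lower in COP. Of 19 glutamate and GABA receptor genes, 9 were tested, and 7 were lower and 0 higher, with a median log2 fold change of -1.84. Grm5, a metabotropic glutamate receptor, was at 300, 287, 242 and 280 CPM in the OPC of mice 3, 4, 30 and 34 and at 12.0, 20.4, 28.7 and 10.9 CPM in their COP (-4.04 ± 0.23). The NMDA receptor gene Grin3a (-3.38 ± 0.26), the GABA receptor gene Gabrb1 (-1.61 ± 0.31), and the AMPA receptor genes Gria3 (-1.84 ± 0.19) and Gria1 (-1.17 ± 0.24) fell too. Gria2, the subunit that limits calcium entry through AMPA receptors, was an exception at 916 ± 53.5 CPM in OPC and 1300 ± 206 CPM in COP (0.54 ± 0.07), higher in 4 of 4 mice but within the limit.

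Of 19 voltage-gated channel and partner genes, 13 were tested, with 8 lower and 2 higher in COP (median -1.48). The potassium channel gene Kcnd2 fell from 187 ± 15.1 to 19.7 ± 5.79 CPM (-3.24 ± 0.23), and Kcnd3 (-3.34 ± 0.39), the sodium channel gene Scn1a (-3.64 ± 0.43) and Kcnk1 (-3.22 ± 0.43) changed by similar amounts. Kcna2 (1.45 ± 0.17) and Kcna1 (1.15 ± 0.30), channels of the Kv1 family, were higher. Without mouse 4, Kcna1 was at 0.92. Of the 8 lower genes, the calcium channel gene Cacna1a was at -0.92 without mouse 30, -0.97 without mouse 34 and -0.95 without the filter on low counts, and had an adjusted p of 0.116 with DESeq2. Kcnj10, the inward rectifier of glia, was at 268 ± 31.9 and 294 ± 35.7 CPM with overlapping groups.

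The matrix and adhesion list had 18 of 20 genes tested, with 10 lower and 1 higher (Tnr) in COP and a median log2 fold change of -1.80. Sdc3, a heparan sulphate proteoglycan, fell from 466 ± 26.0 to 47.0 ± 17.4 CPM (-3.34 ± 0.17) and Ncan, the proteoglycan neurocan, by 2.79 ± 0.20 on the log2 scale. Bcan, the proteoglycan brevican, was at 800.3 ± 95.2 and 990 ± 165 CPM (0.34 ± 0.08, groups overlapping) and Ncam1 at 412 ± 52.8 and 686 ± 155 CPM (0.75 ± 0.10).

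Genes of the cytoskeleton and of process outgrowth were mostly higher in COP. Of 22 genes, 19 were tested, and 10 were higher and 3 lower, with a median log2 fold change of 1.65. Tuba1a, an alpha-tubulin of growing processes, was at 1147, 947, 1087 and 1003 CPM in the OPC of mice 3, 4, 30 and 34 and at 6248, 5694, 8748 and 6502 CPM in their COP (2.70 ± 0.06). Tubb4a, the beta-tubulin of oligodendrocytes, rose from 74.9 ± 10.7 to 1944 ± 243 CPM (4.70 ± 0.11), and Map1b, Mapt and Tppp, which bind microtubules, by 3.00 ± 0.11, 2.00 ± 0.10 and 2.34 ± 0.20. Stmn1, which destabilises microtubules, fell by 1.48 ± 0.14 and Dpysl3 by 2.83 ± 0.29 on the log2 scale (2.12 without mouse 3). Actb was at 4425 ± 1067 and 6869 ± 2047 CPM (0.65 ± 0.05) with overlapping groups.

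Of 17 glycolipid and sphingolipid genes, 14 were tested, with 6 higher and 1 lower in COP (median 0.97). Ugt8a, which makes galactosylceramide, rose from 138 ± 41.9 to 503 ± 61.8 CPM (1.93 ± 0.13), Fa2h, which hydroxylates its fatty acids, by 2.65 ± 0.20 and Gal3st1, which makes sulphatide, by 1.66 ± 0.22. Elovl7, a fatty acid elongase, was at 6.57, 24.6, 0 and 2.29 CPM in the OPC of mice 3, 4, 30 and 34 and at 225, 194, 215 and 127 CPM in their COP (4.63 ± 0.29, and 5.63 without mouse 4). Of 18 cholesterol synthesis genes 12 were tested, and 1 was called higher and 0 lower with a median of 0.08, while 5 were higher and 0 lower by the adjusted p alone. Of the glycolipid and sphingolipid genes, 10 were higher and 1 lower by the adjusted p alone, and the difference between the lists was not tested. Over all 4879 tested genes, 1105 were higher and 1162 lower by the adjusted p alone, and 10.8% were called higher and 13.2% lower.

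Astrocyte, neuron, endothelial and mural, and tanycyte markers were lower in sum in COP without overlap of the groups, while the sums of microglia, ependymal and leptomeningeal markers overlapped. Astrocyte markers summed to 3816 to 4585 CPM in OPC and 1350 to 1966 CPM in COP, and of 10 genes, 9 were tested with 6 lower and 0 higher (median -1.05). Of the 6, Mlc1 was within the limit under 8 alternatives (-0.997 to -0.825), among them without mouse 3 or 30, Slc4a4 under 3 (-0.96 to -0.82), among them without mouse 30, and Ntsr2 without mouse 34 (-0.93). In endothelial cells, which should lack them, the same 10 genes summed to 2478 to 3332 CPM, and in astrocytes to 17332 to 18604 CPM. Slc1a2, the glutamate transporter of astrocytes, was at 1493 ± 101 CPM in OPC, 487 ± 93.7 CPM in COP and 987 ± 122 CPM in endothelial cells. Of 11 neuron markers 4 were tested, with 3 lower and 0 higher (median -1.64), and their sums were 1023 to 1315 CPM in OPC, 205 to 499 CPM in COP and 476 to 715 CPM in endothelial cells. Of 10 microglia markers 2 were tested, of which Ctss was lower with overlapping groups (adjusted p = 0.126 with DESeq2, log2 fold change -0.66 without mouse 34), with sums of 193 to 301 CPM in OPC and 76.2 to 248 CPM in COP. In endothelial and mural markers the sums were 187 to 340 and 58.2 to 159 CPM, and 1 of 10 genes was tested and not called. No member of the tanycyte, ependymal or leptomeningeal lists was tested. Tanycyte markers summed to 78.0 to 275 CPM in OPC and 12.0 to 62.2 CPM in COP, ependymal markers to 55.1 to 127 and 39.8 to 64.2 CPM, and leptomeningeal markers to 6.57 to 34.0 and 3.62 to 19.1 CPM. The 13 mitochondrial genes all passed the adjusted p but not the limit (median -0.62), and of 82 tested ribosomal protein genes 1 was lower (median 0.0022). Without ribosomal and mitochondrial genes, 698 genes were called lower, of which 640 were shared with the 644 of the main analysis. With sums thinned to equal totals, 512 of 3992 tested genes were called lower, of which 469 were shared. Beyond these counts, the part of free RNA, of the mitochondrial share and of depth per cell in the other decreases was not tested.

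Between COP and oligodendrocytes of the same mice, 6209 genes were tested and 27.1% called, 855 higher and 828 lower in oligodendrocytes. This comparison uses the same COP sums, so the values are given side by side only. Enpp6, Bmp4, Gpr17 and Tnr, higher in COP than in OPC, had log2 fold changes of -4.24, -7.77, -6.91 and -6.90 from COP to oligodendrocytes. Frmd4a, Pik3r3 and Brca1 had -5.38, -5.10 and -6.58. Mag (1.51), Cldn11 (1.60) and Mog (2.95) were higher in oligodendrocytes than in COP, while Mbp (-0.02) and Myrf (0.14) were within the limit. Mobp (3.79), Mal (6.18), Ermn (6.69) and Car2 (5.81), none of which was called higher in COP than in OPC, were higher in oligodendrocytes. Pdgfra was at 13.9 ± 7.32 CPM in oligodendrocytes and was not tested there.

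**Figure D5:**
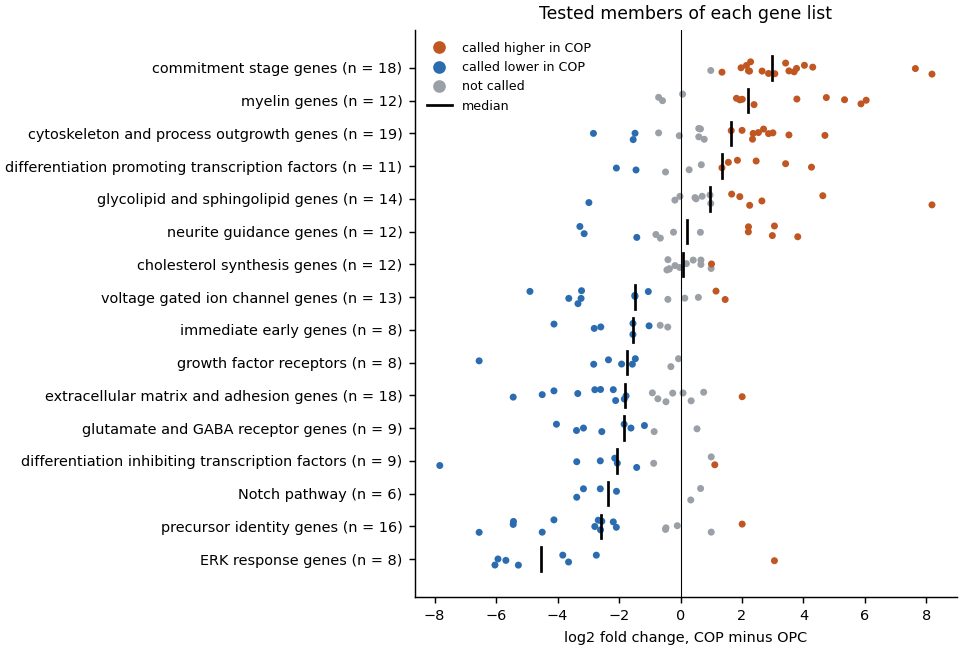
Log2 fold change of COP minus OPC for the tested members of 16 gene lists, with 1 point per gene, called genes coloured and the median as a bar. Medians range from -4.55 for the ERK response genes to 2.97 for the commitment stage genes, and the cholesterol synthesis genes lie around 0.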

How the data were processed

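Per the labels, the Chromium 3' v2 kit of 10x Genomics was used, and the submitters' processing notes name Cell Ranger 1.2 and Seurat. The authors deposited UMI counts per gene and cell, whole numbers without normalization, whose sums equalled the UMI and gene totals they list for every cell. The authors also deposited a cell type label, a mitochondrial and a ribosomal percent, a silhouette score and a doublet score (a fraction) for each cell. How labels and scores were made is not given in the sources used here, and no cell was removed for a doublet score in the main analysis. Cells of 12 libraries that match no labelled sample (50172 cells) and the depth-corrected counts were not used. The files give 1 library per mouse, and p-values measure the spread between 4 mice.

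UMI counts were summed per mouse and label, each label needing 20 cells per mouse. They were tested with edgeR 4.0.16 (R 4.3.3) by the quasi-likelihood F test with mouse as a block, since both sums of a pair come from the same animal, with TMM scaling, filterByExpr and Benjamini-Hochberg adjustment over all tested genes. Standard errors were derived from the F statistic. On simulated data with the OPC mean shares, the totals and the dispersions of 4878 genes, 79% of 2-fold and 97% of 4-fold changes passed the adjusted p. There, 97% of 4-fold changes were called and 3.3% of the genes past the adjusted p were false. The simulation had no mouse effect and far fewer changed genes than were called here, so its rates need not hold for these data. Intervals of ratios and shares are exact binomial and cover counting error only.

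Genes named were the 15 of largest positive and the 15 of largest negative log2 fold change among called genes that moved alike in 4 of 4 mice and had at least 100 CPM in the higher type, and members of the gene lists. The members and lists were chosen with earlier results of these data known. Alternatives were DESeq2 1.42.0, other scalings, no filter, no block, each mouse left out, thinned sums, equal numbers of cells, and sums without cells of high doublet score or low silhouette score or without ribosomal and mitochondrial genes. Alternatives for the comparison with oligodendrocytes were chosen after seeing the data. Some genes that the rule or the lists hold are not reported here by name.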

Additional observations from a re-analysis of the deposited data

Results flagged for a closer look

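In 21 of 335 groups of 4 mice, 1 mouse stood far from the other 3 for its group's range (Dixon's test), where chance alone gives about 5% of groups. Enpp6 stood at 825 CPM in the COP of mouse 3, against 674 to 684 CPM in the others. Ntrk2 was at 435 CPM in the COP of mouse 4 against 225 to 231 CPM, Kif19a at 197 against 129 to 138 CPM and Hes1 at 54.3 against 7.24 to 10.0 CPM. The astrocyte markers summed to 1966 CPM in the COP of mouse 4 against 1350 to 1436 CPM. In the OPC of that mouse the inhibiting transcription factors summed to 1599 CPM and the endothelial and mural markers to 340 CPM.

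In the COP of mouse 30, the cell cycle genes summed to 201 CPM against 127 to 129 CPM, with Pcna at 95.7 against 24.1 to 27.2 CPM and Hmgb2 at 100.5 against 74.7 to 76.2 CPM. Notch1 was at 38.3 CPM there, against 23.8 to 25.4 CPM. In the OPC of mouse 30, haemoglobin genes summed to 675 CPM against 94.1 to 135 CPM and Kcnj10 was at 221 CPM. C1ql1 was at 72.4 CPM in the COP of mouse 34, Kcna2 at 82.6 CPM in the OPC of mouse 34 and Igf1r at 62.2 CPM in the COP of mouse 3.

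Among shares of cells thinned to equal depth, 77.2% of the OPC of mouse 3 held an Mbp UMI against 54.9% to 57.3% in the other mice. Neu4 was seen in 10.7% of the OPC of mouse 4, Sox10 in 14.7% of the COP of mouse 34, Enpp6 in 0.518% of the OPC of mouse 3 and Mog in 0.273% of the OPC of mouse 34.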

How the results depend on the processing

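Without a filter on low counts, 14330 genes were tested and 837 were called higher and 1464 lower in COP. By the adjusted p alone the counts were 1105 and 1162. With equal numbers of cells, 2790 genes were tested, and 373 were called higher and 334 lower. Without the mouse block the calls were 528 higher and 647 lower, of which 522 and 639 were shared. Leaving out 1 mouse at a time gave 530 to 640 higher and 607 to 866 lower calls, and a mean COP share of 32.2% to 39.1%. For oligodendrocytes against COP, alternatives chosen after seeing the data gave 1431 higher calls without the filter, 854 and 831 without the block, and 779 to 1084 higher and 766 to 1014 lower calls with 1 mouse left out.

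Without thinning, shares of cells with a UMI were 70.1% in OPC and 1.82% in COP for Pdgfra, 43.8% and 92.2% for Gpr17, and 66.0% in COP for Enpp6. The cause of these shifts was not tested, and the numbers of genes tested and UMIs per cell are given as description only. Of 3082 values of 212 genes under the alternatives, 0 reversed the direction of a called gene. A call was lost in 31 values of 9 genes and gained in 40 values of 15 genes. A gene that an alternative filtered out had no value there and was not counted as a lost call. Equal numbers of cells left 163 of the 212 genes with a value, and thinned sums left 189. With equal numbers of cells, 354 of the 528 higher and 294 of the 644 lower calls of the main analysis were shared. Most cell cycle genes had too few UMIs to pass the filter, and the part of depth in this was not tested.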

Other observations

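Guidance, activity and abundant genes gave further differences. Of 20 neurite guidance genes, 12 were tested, with 5 higher and 3 lower in COP (median 0.21, against -0.0061 over all tested genes). Sema4d, a semaphorin, rose from 9.82 ± 5.60 to 161 ± 42.8 CPM (SD, n = 4), its relative Sema5a from 97.2 ± 18.4 to 450 ± 62.8 CPM, the plexin receptor gene Plxnb3 from 47.3 ± 13.2 to 360 ± 73.5 CPM and Rtn4, which encodes the outgrowth inhibitor Nogo, from 162 ± 13.2 to 739 ± 68.1 CPM. Ntn1, the netrin ligand, fell by 3.28 ± 0.26 and Robo1, a Slit receptor, by 3.14 ± 0.41 on the log2 scale (SE). Of 15 immediate early genes, 8 were tested, with 6 lower and 0 higher (median -1.55). Of the 6, Btg2 was at -0.95 without mouse 30 and -0.93 without the filter on low counts, and had an adjusted p of 0.130 with DESeq2. Fos fell from 633 ± 191 to 89.3 ± 37.2 CPM, Fosb from 130 ± 34.8 to 8.10 ± 4.83 CPM and Egr1 from 235 ± 107 to 44.6 ± 33.6 CPM (log2 fold change -2.59, and -1.73 without mouse 3 or -3.50 without mouse 4). Of 12 mature oligodendrocyte markers, 3 were tested and 2 were higher (median 2.39), among them Trf, the transferrin gene, at 16.8 ± 4.76 and 83.5 ± 27.6 CPM. Of 4 haemoglobin genes, 2 were tested and neither was called, although without mouse 30 both Hba-a1 (1.56) and Hbb-bs (1.30) were called higher in COP.

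Some abundant genes outside the lists were chosen after their values were seen. Ptn, the growth factor pleiotrophin, was at 2950 ± 620 CPM in OPC, 215 ± 45.6 CPM in COP and 1331 CPM in oligodendrocytes. Dbi, which binds acyl-CoA, was at 5388 ± 485, 1302 ± 106 and 3007 CPM in the same order, and Cntn1, the adhesion protein contactin, at 1052 ± 83.7, 167 ± 29.6 and 167 CPM. Mean levels were highest in COP, of the 3 types, for Qk, an RNA-binding protein of myelin genes, at 1104 ± 108, 3213 ± 357 and 2031 CPM, Dpysl2 at 487 ± 90.1, 2369 ± 442 and 1033 CPM and Pdcd4, a translation inhibitor, at 67.3 ± 13.1, 1190 ± 431 and 23.3 CPM. From OPC to COP the groups did not overlap in any of these 6 genes, as in 37.7% of all tested genes. Since the genes were chosen by their values, this is a description and not a test.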
